A study of Mus musculus with 8 samples.

Results

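Krüppel-like factors (KLFs) are transcription factors that bind GC-rich and CACCC elements of DNA through zinc fingers at their C-terminal end, while their N-terminal parts differ and recruit either coactivators or corepressors. Several of their genes answer quickly to hormones, growth factors or blood flow, and in neurons different KLFs are known to favour or restrain the growth of axons. Klf9 and Klf15 are known targets of the glucocorticoid receptor in rodent tissues, and Klf2 and Klf4 are known from the endothelium of blood vessels, among other cells. The genes described are 10 members of this family, Klf2, Klf3, Klf4, Klf6, Klf7, Klf9, Klf10, Klf12, Klf13 and Klf15, of 24344 gene symbols in the table. They were chosen by name, each stood on 1 row, and all 10 passed the filter on low values, as did 12377 genes in all.

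The material was occipital cortex, homogenised and sequenced as RNA, from C57BL/6J mice aged 35 days. The groups were 4 libraries from mice fasted for 48 h and 4 libraries from mice with free access to food (ad libitum). The labels name no other agent or genotype and do not say whether each library came from a separate mouse, so that p-values measure the spread between these libraries. Values are FPKM (fragments per kilobase of transcript, scaled to library size), which allow levels to be compared between genes. A homogenate mixes all cell types of the cortex, and fewer cells of a type cannot be told apart from less RNA per cell.

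Libraries held an estimated 17500000 to 22000000 fragments. Markers of excitatory neurons summed to 1138 to 1306 FPKM in fasted and 1076 to 1261 FPKM in ad libitum libraries, and those of choroid plexus and ependyma to 2.30 to 4.25 FPKM in fasted and 1.72 to 2.72 FPKM in ad libitum libraries. Of 10 microglia markers 5 were lower (9 without ad libitum replicate 4, and 6 when blocked on replicate number) and 0 higher, with sums of 84.0 to 93.9 FPKM in fasted and 99.5 to 134.6 FPKM in ad libitum libraries. Over all tested genes 16.3% were lower and 9.56% higher, or 22.1% and 14.3% when blocked. Odd replicate numbers held Y-linked transcripts and even numbers Xist, with 1 exception. Ad libitum replicate 3 held both, Xist at 32.2 FPKM and Y-linked genes at a sum of 20.2 FPKM, where single-sex libraries had 62.9 to 77.5 FPKM of Xist or 37.1 to 50.5 FPKM of Y-linked transcripts. Leaving that library out, or adding a term that separates odd from even numbers, changed no call on a KLF gene. Libraries with the same replicate number deviated from their group means together, and results with the number as a block are given beside the KLF genes and lists whose calls they change.

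Of the 10 KLF genes, 3 were higher in fasted cortex, Klf15, Klf9 and Klf13, and 0 were lower (limma, Benjamini-Hochberg adjusted p under 0.05). Among all tested genes 9.56% were higher and 16.3% lower by this test, 25.8% together, so that 3 of 10 is near the share of genes called in either direction. At an unadjusted p under 0.05 there were 3 higher and 1 lower, Klf12. Blocking on the replicate number added Klf2 and Klf4 to the higher genes, 5 in all, and made 1 lower, Klf12, where all genes gave 14.3% higher and 22.1% lower, or 36.4% together. The median log2 change of the 10 genes was 0.12, against -0.02 over all tested genes, in log2(FPKM + 1) units, in which low genes appear to change less than they do. The values of fasted and ad libitum libraries did not overlap for 3 of the 10, the same Klf15, Klf9 and Klf13, while they did not overlap for 27.6% of all tested genes, 11.1% with fasted libraries above and 16.5% with fasted libraries below.

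**Figure D1:**
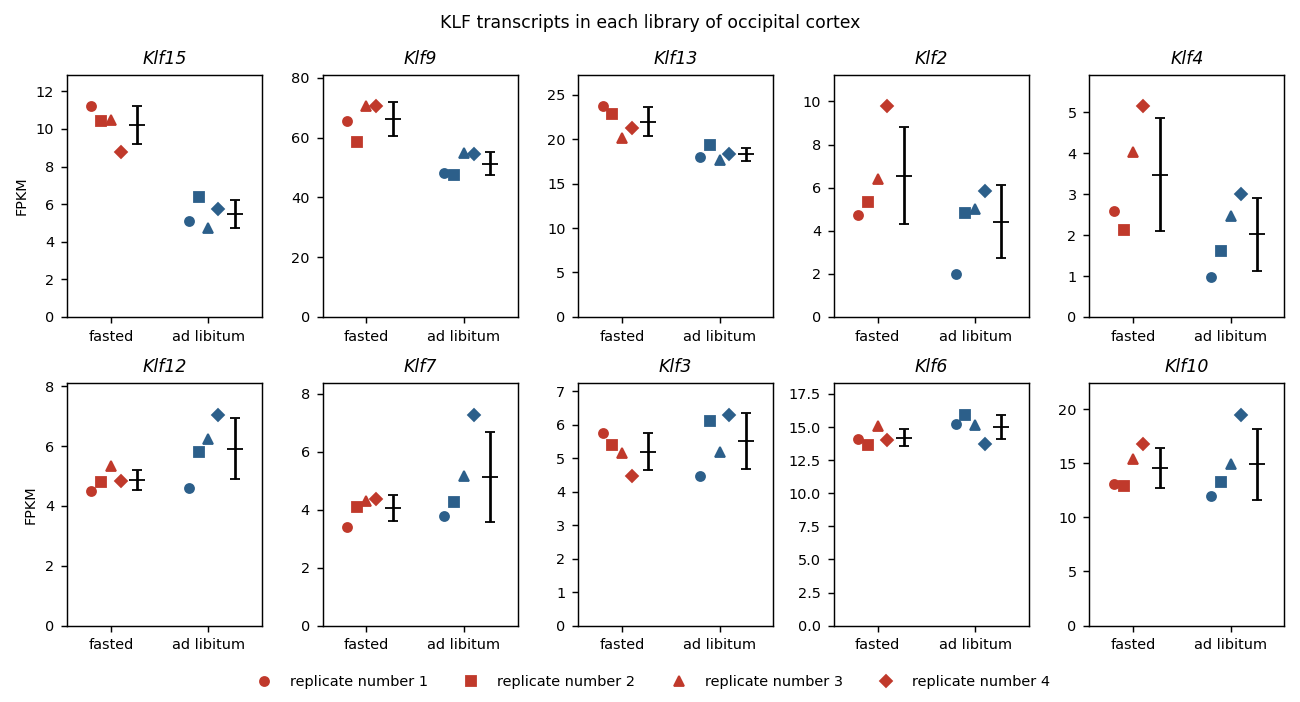
FPKM of the 10 KLF genes in each library, fasted left of ad libitum in every panel, with a symbol for each replicate number and the mean ± SD (n = 4) in black beside the points. Klf15, Klf9 and Klf13 show no overlap between the groups, and for Klf2 and Klf4 number 4 is highest in both groups.

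Klf15 had the largest change of the 10 in this test. It encodes a factor known for driving amino acid breakdown in liver and muscle of fasted mice. It was at 11.2, 10.4, 10.5 and 8.79 FPKM in fasted replicates 1 to 4, against 5.10, 6.39, 4.71 and 5.73 FPKM in ad libitum replicates 1 to 4. Every fasted library lay above every ad libitum library. The means were 10.2 ± 1.02 FPKM in fasted and 5.48 ± 0.734 FPKM in ad libitum cortex (SD, n = 4 each), a ratio of 1.86. The log2 change was 0.79 (SE 0.0899, 95% interval 0.60 to 0.99, limma adjusted p = 0.000252), and 0.89 with a pseudocount of 0.1. The gene lies on chromosome 6 at 90462576 to 90475238 (GRCm38).

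Klf9 was the most abundant of the 10 and carried between 41.8% and 45% of their summed FPKM in fasted and 38.0% to 42.2% in ad libitum libraries. Its product, also called BTEB1, restrains axon growth in rodent neurons and is induced by thyroid hormone and glucocorticoids. It was at 65.4, 58.5, 70.5 and 70.5 FPKM in fasted replicates 1 to 4, against 48.1, 47.6, 54.9 and 54.4 FPKM in ad libitum replicates 1 to 4. The groups did not overlap, and numbers 3 and 4 were above numbers 1 and 2 in both. Klf9 averaged 66.2 ± 5.67 FPKM in fasted and 51.3 ± 3.95 FPKM in ad libitum cortex (SD, n = 4 each), a log2 change of 0.36 (SE 0.0744, 95% interval 0.20 to 0.53, limma adjusted p = 0.00528). The gene lies on chromosome 19 at 23141226 to 23168134.

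Klf13 encodes a close relative of KLF9 that, like it, binds the corepressor SIN3A. It was at 23.7, 22.8, 20.1 and 21.2 FPKM in fasted replicates 1 to 4, against 18.0, 19.3, 17.6 and 18.3 FPKM in ad libitum replicates 1 to 4. The lowest fasted library, number 3, lay just above the highest ad libitum library, number 2. Klf13 averaged 22.0 ± 1.59 FPKM in fasted and 18.3 ± 0.735 FPKM in ad libitum cortex (SD, n = 4 each), a log2 change of 0.25 (SE 0.0593, 95% interval 0.12 to 0.38, limma adjusted p = 0.0109). The gene lies on chromosome 7 at 63886351 to 63938915. Since their groups did not overlap, all 3 genes were by necessity higher in fasted cortex within each of the 4 replicate numbers. The calls of all 3 held when any 1 library was left out. The limma adjusted p then reached at most 0.00165 for Klf15, 0.0202 for Klf9 and 0.0392 for Klf13.

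**Figure D2:**
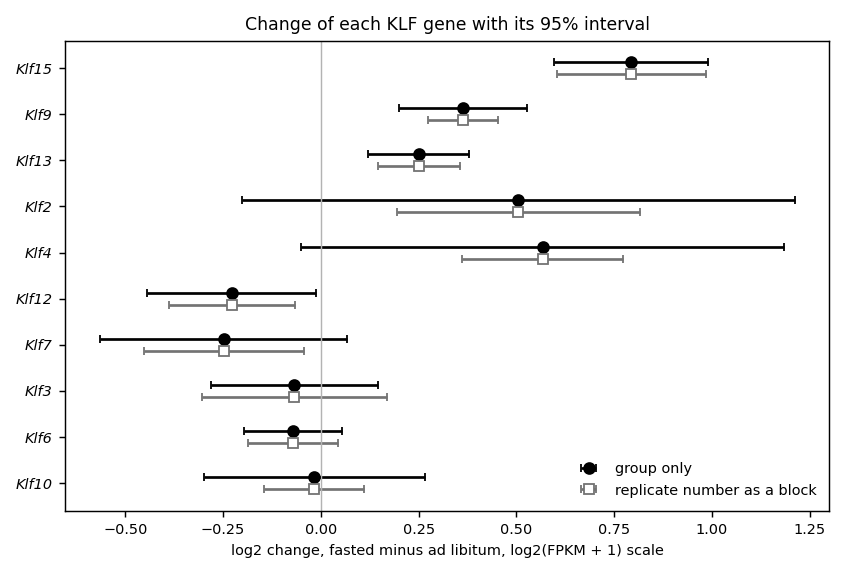
Log2 change of each KLF gene, fasted minus ad libitum, on the log2(FPKM + 1) scale with its 95% interval, from the fit with group only (filled circles) and from the blocked fit (open squares). The block leaves each change where it was and narrows the intervals of Klf2, Klf4 and Klf7 so that they no longer reach 0, although Klf7 does not pass after adjustment over all genes.

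The promoters of the 3 genes that were called higher are shown because of that call, although the order of the fasted libraries differed between the genes. Each window runs from 250 bases before the RefSeq gene start to the first 10 bases of the gene (GRCm38.p6, 5′ to 3′ on the gene's strand). Capitals mark CACGTG, the E-box bound by clock and other bHLH factors, and TGACGT, the core of the cAMP-response element. The intervals are chr6:90462326-90462585 on the plus strand for Klf15, chr19:23140976-23141235 on the plus strand for Klf9 and chr7:63938906-63939165 on the minus strand for Klf13.
Klf15: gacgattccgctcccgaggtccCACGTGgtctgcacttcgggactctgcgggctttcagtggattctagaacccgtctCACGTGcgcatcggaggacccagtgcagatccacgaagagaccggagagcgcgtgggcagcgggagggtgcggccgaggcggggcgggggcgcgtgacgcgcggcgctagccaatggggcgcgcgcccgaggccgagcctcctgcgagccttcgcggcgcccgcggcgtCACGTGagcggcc
Klf9: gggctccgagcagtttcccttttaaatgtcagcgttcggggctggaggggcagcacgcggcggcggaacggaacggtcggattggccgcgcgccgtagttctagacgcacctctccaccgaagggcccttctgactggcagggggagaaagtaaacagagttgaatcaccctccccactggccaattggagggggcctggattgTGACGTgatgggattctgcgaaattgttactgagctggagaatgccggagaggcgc
Klf13: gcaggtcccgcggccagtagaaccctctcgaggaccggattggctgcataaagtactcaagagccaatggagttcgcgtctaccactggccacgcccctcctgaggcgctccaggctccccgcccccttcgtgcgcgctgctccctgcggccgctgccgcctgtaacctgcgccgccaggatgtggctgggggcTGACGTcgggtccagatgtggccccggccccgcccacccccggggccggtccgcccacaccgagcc

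Promoter sequences were found for 9 of the 10 genes. Klf15 held 3 matches to CACGTG, starting 228, 172 and 3 bases before the gene start. At least 1 match was in 6.34% of the 32851 promoter windows of the same length, and at least 3 in 0.0731%. Klf4 and Klf6 held 1 match each. TGACGT was found once in Klf9, 46 bases before the start, and once in Klf13, 56 bases before it, against 6.90% of all windows. The palindromic glucocorticoid response element, AGAACA and TGTTCT with any 3 bases between them, had no match in these windows and was in 0.00913% of all windows. The FoxO element TGTTTAC matched once, in Klf9, and in 3.30% of all windows. GGGCGG, the GC box that KLF and SP proteins themselves bind, was in 7 of 9 KLF windows and 33.4% of all, and CACCC in 7 of 9 and 53.2% of all. Both strands were searched, and a GC box can share bases with a CACCC match. The KLF windows were 47.7% (Klf12) to 78.1% (Klf3) G and C, against a median of 52.3%, which bears on how often GC-rich motifs match. A match is a description of these letters and not evidence of binding.

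Klf2 and Klf4 encode factors that keep endothelium quiescent and are induced by blood flow through MEF2 proteins, and both are also known as early-response genes in other cells. Klf2 was at 4.73, 5.33, 6.41 and 9.78 FPKM in fasted replicates 1 to 4, against 1.98, 4.84, 5.01 and 5.84 FPKM in ad libitum replicates 1 to 4. Klf4 was at 2.58, 2.13, 4.04 and 5.15 FPKM in fasted replicates 1 to 4, against 0.979, 1.62, 2.47 and 3.002 FPKM in ad libitum replicates 1 to 4. For both genes the groups overlapped, and the spread within each group was wide. Yet within each of the 4 replicate numbers the fasted library was higher, by 0.11 to 0.94 for Klf2 and by 0.25 to 0.86 for Klf4 on the log2(FPKM + 1) scale. With group alone, the log2 change was 0.50 for Klf2 (95% interval -0.20 to 1.21, limma adjusted p = 0.262) and 0.57 for Klf4 (95% interval -0.05 to 1.18, limma adjusted p = 0.159), and neither passed the test. In the fit blocked on replicate number the same changes had 95% intervals of 0.19 to 0.82 and 0.36 to 0.77 and passed it (limma adjusted p = 0.0232 for Klf2 and 0.00149 for Klf4). The log2 changes with a pseudocount of 0.1 were 0.61 and 0.78. With group alone, the change of Klf2 was 0.24 without ad libitum replicate 1 and 0.32 without fasted replicate 4, and that of Klf4 was 0.38 and 0.40 without the same libraries.

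At the depth estimated, the lowest value of Klf4, in ad libitum replicate 1, stood for about 58 fragments and that of Klf2, in the same library, for about 72. Counting error would be about 13% and 12% of these values, if the longest coding transcript is the one expressed. Klf2 lies on chromosome 8 at 72319033 to 72321656 and Klf4 on chromosome 4 at 55527143 to 55532466. Their promoters are shown because these genes vary together, over chr8:72318812-72319071 on the plus strand for Klf2 and chr4:55532466-55532725 on the minus strand for Klf4, the same 260 bases relative to the RefSeq gene start. Capitals mark a MEF2 site in Klf2, 118 bases before the start, and the CACGTG match in Klf4, 182 bases before it.
Klf2: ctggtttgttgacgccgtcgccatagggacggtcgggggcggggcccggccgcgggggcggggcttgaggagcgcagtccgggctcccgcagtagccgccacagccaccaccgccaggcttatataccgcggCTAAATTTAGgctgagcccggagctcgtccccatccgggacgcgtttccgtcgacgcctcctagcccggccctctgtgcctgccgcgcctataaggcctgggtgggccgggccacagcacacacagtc
Klf4: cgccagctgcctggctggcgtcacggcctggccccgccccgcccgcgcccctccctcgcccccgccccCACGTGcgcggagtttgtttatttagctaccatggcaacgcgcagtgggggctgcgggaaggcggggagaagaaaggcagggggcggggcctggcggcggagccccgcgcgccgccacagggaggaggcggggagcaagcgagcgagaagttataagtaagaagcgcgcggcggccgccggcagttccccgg

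Of the 9 KLF windows 1, that of Klf2, matched the MEF2 site, which was in 2.98% of all windows. The CArG box of serum response factor matched in 0 of the 9 windows and in 493 of the 32851.

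**Figure D3:**
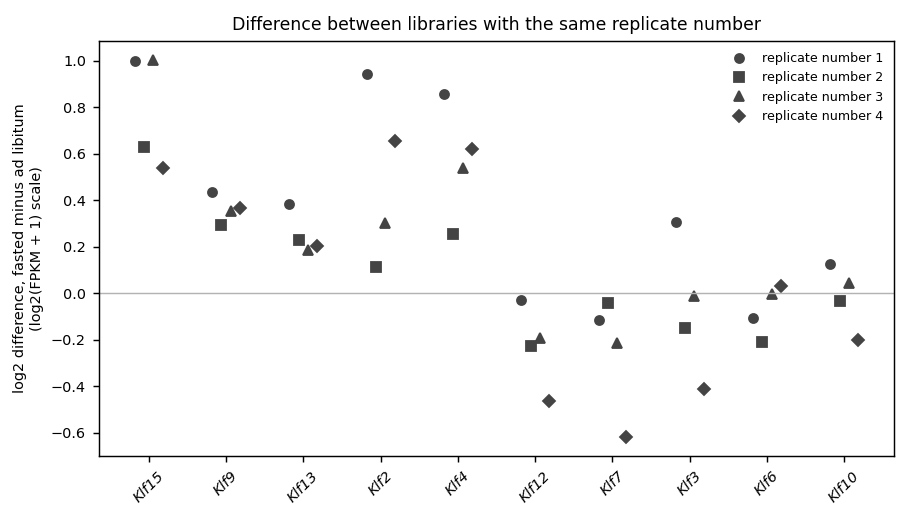
Log2 difference between the fasted and the ad libitum library of the same replicate number, for each of the 10 KLF genes, on the log2(FPKM + 1) scale. The 4 differences of Klf15, Klf9, Klf13, Klf2 and Klf4 are all above 0 and those of Klf12 and Klf7 all below it.

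The replicate numbers ordered Klf2 and Klf4 in much the same way in both groups. Klf2 was lowest in number 1 and highest in number 4 of each group, and Klf4 was highest in number 4 of each. Same-numbered libraries shared 84.9% of the within-group variance of Klf2, 92.3% of that of Klf4, 91.2% of that of Klf10 and 93.8% of that of Klf9, where the median over all tested genes was 66.6%. This share weighs deviations in the same direction against opposite ones, so that unrelated libraries would give a middle value and not 0%. For Klf15 the share was 33.2% and for Klf3 16.3%, and same-numbered libraries of both deviated more in opposite directions than together. The immediate-early gene Fos, a marker of recent neuronal activity, was at 30.2, 59.4, 63.3 and 45.6 FPKM in fasted replicates 1 to 4, against 24.6, 62.9, 71.6 and 57.6 FPKM in ad libitum replicates 1 to 4. Its same-number share was 95.1%, and like Klf2 it was lowest in number 1 of both groups. The spread of Klf2 and Klf4 within groups, SDs of 0.48 and 0.45 on the log2(FPKM + 1) scale, was above that of 99.5% and 99.4% of tested genes, and that of Fos was 0.59. The part of this shared variation in the results on Klf2 and Klf4 was not tested. Of 13 immediate-early genes 0 were higher and 1 was lower, Jun, with a log2 change of -0.48 (limma adjusted p = 0.0133), and 0 were higher and 1 lower at an unadjusted p under 0.05. With the block, or without ad libitum replicate 1, 2 were lower, with Npas4 added. Npas4 was at a log2 change of -0.47 with limma adjusted p = 0.148 with group alone. The shares over all tested genes were 9.56% higher and 16.3% lower, and 14.3% and 22.1% with the block.

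Some vascular markers were lower in fasted cortex, and others had changes above 0. Of 12 endothelial markers 4 were lower and 0 higher, where 16.3% and 9.56% of all tested genes were (2 higher and 5 lower at an unadjusted p under 0.05, also 2 and 5 with the replicate block, and 1 higher when fasted replicate 3 or ad libitum replicate 2 or 4 was left out). Their summed level was 75.1 to 90.1 FPKM in fasted and 89.8 to 106.5 FPKM in ad libitum libraries, and no listed marker was at 0 in every library. Itm2a averaged 15.2 ± 1.42 FPKM in fasted and 22.4 ± 1.55 FPKM in ad libitum cortex, and Tek, the angiopoietin receptor, 1.54 ± 0.228 FPKM in fasted and 2.63 ± 0.106 FPKM in ad libitum cortex (SD, n = 4 each). Emcn and Kdr had log2 changes of -0.54 and -0.37. Esam and Abcb1a, named after their values were seen, had log2 changes of 0.23 and 0.24. They were called higher with the replicate block (limma adjusted p = 0.0197 and 0.0319) but not in the main fit (0.0761 and 0.0539). Both also passed after median-ratio scaling (limma adjusted p = 0.0362 and 0.0399) and quantile scaling (0.0359 and 0.0346). Abcb1a passed with the term for odd and even numbers as well (limma adjusted p = 0.0458). Pecam1 was at 0.07, not called (limma adjusted p = 0.541). Of 6 tested mural cell markers 2 were lower, Rgs5 at -0.53 and Vtn at -0.46, and 0 were higher, and the 8 listed genes summed to 36.0 to 41.4 FPKM in fasted and 47.7 to 57.0 FPKM in ad libitum libraries. The part of these markers in the values of Klf2 and Klf4 was not tested.

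Of 9 genes that KLF2 or KLF4 is known to raise or lower in endothelium, 5 were tested. Of these, 3 were lower and 0 higher, where 16.3% and 9.56% of all tested genes were. The counts were the same with the block, where all genes gave 22.1% lower and 14.3% higher. Nos3 and Adamts1, named after their values were seen, were not called. Their log2 changes were -0.08 (limma adjusted p = 0.566) and 0.16 (limma adjusted p = 0.535). S1pr1, a receptor for sphingosine-1-phosphate that astrocytes express as well, averaged 35.9 ± 2.23 FPKM in fasted and 51.2 ± 2.27 FPKM in ad libitum cortex (SD, n = 4 each), a log2 change of -0.50 (limma adjusted p = 0.000276). The adhesion molecule gene Vcam1 had a log2 change of -0.46 (limma adjusted p = 0.000977). The thrombomodulin gene Thbd had a log2 change of -0.44 (limma adjusted p = 0.0231), and it missed the threshold when ad libitum replicate 2 (adjusted p = 0.0589) or fasted replicate 3 (adjusted p = 0.0628) was left out. In cultured endothelium KLF2 is known to raise Thbd and to lower Vcam1. The part of KLF2 and KLF4 in the values of these genes was not tested.

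Klf6 and Klf7 encode the family members known to favour axon growth. Klf6 was at 14.1, 13.6, 15.1 and 14.0 FPKM in fasted replicates 1 to 4, against 15.2, 15.9, 15.1 and 13.7 FPKM in ad libitum replicates 1 to 4. The groups overlapped, and the log2 change of -0.07 had a 95% interval of -0.20 to 0.05 (limma adjusted p = 0.38). Klf7 was at 3.41, 4.11, 4.31 and 4.38 FPKM in fasted replicates 1 to 4, against 3.77, 4.26, 5.17 and 7.26 FPKM in ad libitum replicates 1 to 4. The fasted library was lower within each replicate number, by 0.04 to 0.62 on the log2(FPKM + 1) scale, with the largest gap in number 4. The log2 change of -0.25 did not pass the test (95% interval -0.56 to 0.07, limma adjusted p = 0.227), nor after adjustment with the block (95% interval of the change itself -0.45 to -0.04, limma adjusted p = 0.0587), and was -0.09 without ad libitum replicate 4. Annotated transcripts of Gm13748 and Gm26649 overlap Klf7 on the other strand, and one of Gm20033 overlaps Klf3. Whether the libraries keep strand is not given in the sources used here, so that reads of these pairs could be mixed.

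Of 10 axon growth genes 7 were tested, 2 were higher and 3 lower, where 9.56% and 16.3% of all tested genes were. The growth cone protein gene Gap43 averaged 101 ± 10.5 FPKM in fasted and 128 ± 7.65 FPKM in ad libitum cortex (SD, n = 4 each), a log2 change of -0.35. The cell adhesion gene L1cam had a log2 change of -0.42 and the microtubule regulator gene Stmn2 of -0.25, which missed the threshold without ad libitum replicate 3 (limma adjusted p = 0.0505). Cdkn1a, a cell cycle inhibitor gene that glucocorticoids also induce, was 0.86 higher on the same scale. The other rise, Sox11, ended without any of 6 of the 8 libraries and with no filter on low values, which leaves 1 gene higher there.

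Klf10, known as TIEG1 for its early induction by transforming growth factor beta, was at 13.1, 12.9, 15.4 and 16.8 FPKM in fasted replicates 1 to 4, against 11.9, 13.3, 14.9 and 19.5 FPKM in ad libitum replicates 1 to 4. The groups overlapped over most of their range, and number 4 was highest in both. The log2 change was -0.02 (95% interval -0.30 to 0.26, limma adjusted p = 0.933), and the interval with the block was -0.14 to 0.11.

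Klf3 and Klf12 encode repressors that recruit CtBP proteins. Klf3 was at 5.77, 5.41, 5.15 and 4.48 FPKM in fasted replicates 1 to 4, against 4.48, 6.11, 5.20 and 6.30 FPKM in ad libitum replicates 1 to 4. The groups overlapped, and the log2 change of -0.07 had a 95% interval of -0.28 to 0.15 (limma adjusted p = 0.641). Klf12 was at 4.49, 4.81, 5.32 and 4.83 FPKM in fasted replicates 1 to 4, against 4.60, 5.80, 6.22 and 7.04 FPKM in ad libitum replicates 1 to 4. The ad libitum values of Klf12 were above all fasted values except in number 1, where the log2 difference was -0.03, beside -0.46 in number 4. Its log2 change of -0.23 (95% interval -0.44 to -0.01) did not pass the test with group alone (limma adjusted p = 0.111). It passed with the replicate block (limma adjusted p = 0.0324) and, at -0.33, without ad libitum replicate 1 (limma adjusted p = 0.0149).

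Over all tested genes 9.56% were higher and 16.3% lower, and 14.3% and 22.1% with the replicate block. Among 12 genes for proteins that KLFs bind or that degrade them, 3 were higher and 3 lower, and with that block 5 and 5. The higher genes were Sap30 and Sin3b, which encode parts of the SIN3 corepressor complex, and Crebbp, which encodes an acetyltransferase. Sap30 averaged 4.14 ± 0.493 FPKM in fasted and 2.48 ± 0.424 FPKM in ad libitum cortex (SD, n = 4 each), a log2 change of 0.56 (limma adjusted p = 0.00215). Sin3b and Crebbp were 0.33 and 0.29 higher. The lower genes were Hdac1 (-0.24), Hdac2 (-0.18) and Ctbp2 (-0.27, named after its value was seen, as was Hdac1), and 0 of these calls were left without ad libitum replicate 2 or 3, and 1 without fasted replicate 4. Each call was also lost without at least 1 more library, with adjusted p up to 0.0570 for Hdac1, 0.0614 for Hdac2 and 0.0723 for Ctbp2. Sin3a and Ctbp1, with log2 changes of 0.06 and -0.02, were not called.

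The ranking of levels was led by Klf9 in both groups, followed by Klf13, each apart from its neighbours in the ranking. In fasted cortex Klf10 (14.6 ± 1.87 FPKM) and Klf6 (14.2 ± 0.619 FPKM) overlapped each other and stood above Klf15, which overlapped Klf2. Klf3 and Klf12 overlapped, as did Klf7 and Klf4 at the low end (4.05 ± 0.443 FPKM for Klf7 and 3.48 ± 1.38 FPKM for Klf4). In ad libitum cortex Klf6 and Klf10 overlapped at 15.0 ± 0.924 and 14.9 ± 3.28 FPKM, and Klf12, Klf3, Klf15, Klf7 and Klf2 formed a chain of overlapping neighbours between 5.91 and 4.42 FPKM, with Klf4 last at 2.02 ± 0.896 FPKM. Klf15 thus stood at rank 5 of 10 in fasted and at rank 7 of 10 in ad libitum cortex, a description of levels without a test.

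**Figure D4:**
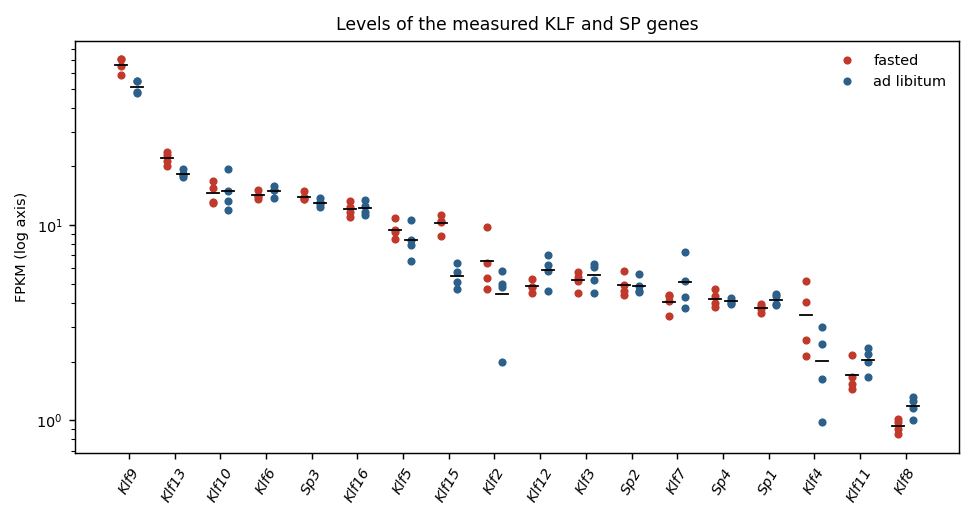
FPKM on a log axis of the 18 KLF and SP genes that passed the filter, in order of their mean level, with fasted libraries left of ad libitum libraries for each gene and a bar at each mean. Klf9 lies above all others, and Klf15 is the gene whose groups stand furthest apart without overlap.

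Of 7 other KLF genes 4 were tested, and 0 were higher or lower, where 25.8% of all tested genes were. At an unadjusted p under 0.05 (limma) 1 of them was lower, Klf8. With no filter on low values 1 was called higher, Klf14, at no more than 0.218 FPKM in any library, with a log2 change of 0.12 (limma adjusted p = 0.0285). Klf8 had a log2 change of -0.17 (limma adjusted p = 0.0952), Klf11 of -0.18 (0.198), Klf16 of -0.01 (0.903) and Klf5 of 0.18 (0.279), and Klf5 passed without ad libitum replicate 4, at 0.29 (limma adjusted p = 0.0275). Of 9 SP genes, the nearest relatives of the KLFs, 4 were tested with 0 calls, and 0 at an unadjusted p under 0.05. Sp3 averaged 14.0 ± 0.637 FPKM in fasted and 13.0 ± 0.590 FPKM in ad libitum cortex (SD, n = 4 each), a log2 change of 0.10 (limma adjusted p = 0.185). Sp1, Sp2 and Sp4 had log2 changes of -0.11, 0.01 and 0.04. That some KLF genes passed the test and their relatives did not is no test of a difference between them.

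Glucocorticoid-responsive genes are set beside Klf9 and Klf15, and the part of glucocorticoids in the values of these 2 genes was not tested. Of 15 such genes 14 were higher and 0 lower, where 9.56% and 16.3% of all tested genes were. With the block, and also at an unadjusted p under 0.05, 15 were higher and 0 lower. The median log2 change of the 15 was 0.77. Fkbp5, a co-chaperone gene of the glucocorticoid receptor, averaged 14.2 ± 2.55 FPKM in fasted and 3.89 ± 0.352 FPKM in ad libitum cortex (SD, n = 4 each), a log2 change of 1.63. Sult1a1, Hif3a and Sgk1 were 1.59, 1.27 and 1.16 higher. The change of Klf15 is close to the median of these genes and that of Klf9 is below the smallest called among them, Pdk4 at 0.44 (named after its value was seen). Klf9 is above Mt2, at 0.34 and also named after its value was seen. Mt2 was not called with group alone (limma adjusted p = 0.0539) but was with the block (0.00482). The list was drawn up with results of these data known.

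Of 12 genes of amino acid breakdown linked to KLF15 in liver and muscle, 6 passed the filter, 1 was higher and 1 lower. The shares over all tested genes were 9.56% and 16.3%, and 14.3% and 22.1% with the block. Gpt2, an alanine aminotransferase gene, averaged 13.5 ± 1.31 FPKM in fasted and 10.6 ± 0.755 FPKM in ad libitum cortex (SD, n = 4 each), a log2 change of 0.32 (limma adjusted p = 0.00928). Bcat2, which encodes an aminotransferase of branched-chain amino acids, had a log2 change of -0.29 (limma adjusted p = 0.0112). The proline dehydrogenase gene Prodh was at 0.22 and did not pass with group alone (limma adjusted p = 0.176), and with the block 3 genes were higher, with Prodh (adjusted p = 0.0120) and Bckdha (0.00829) added. Bckdha, at 0.23, also passed without fasted replicate 4 (adjusted p = 0.0367) and after median-ratio scaling (0.0394). Hpd, Tat and Prodh2, known from the liver, were listed at or near 0 in all libraries.

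**Figure D5:**
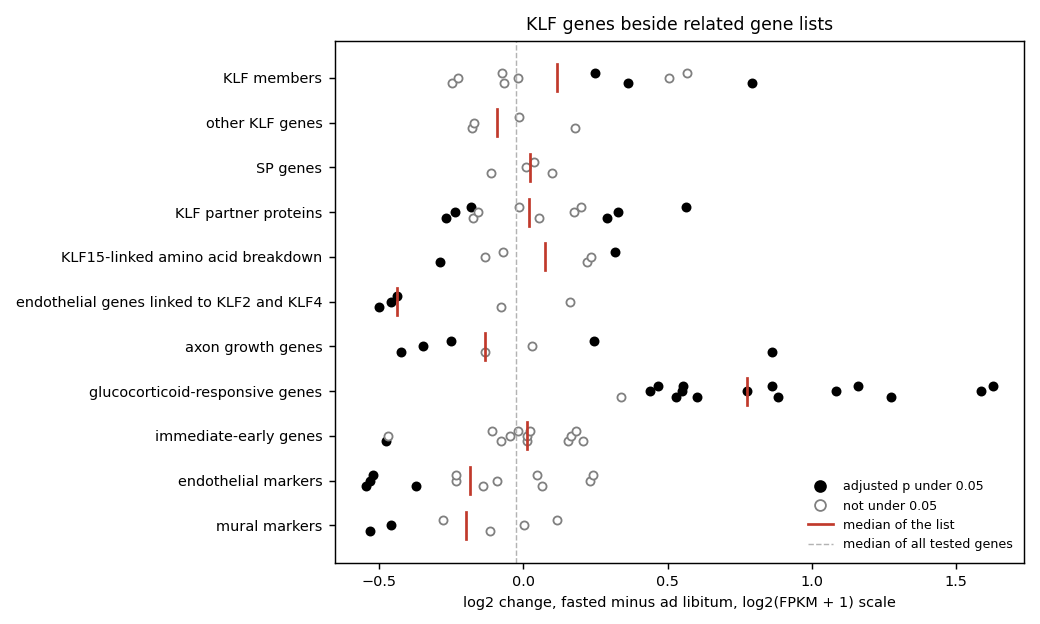
Log2 change, fasted minus ad libitum, of every tested gene in the KLF lists, the related lists and the endothelial and mural markers on the log2(FPKM + 1) scale, filled where the limma adjusted p is under 0.05, with the median of each list in red and that of all tested genes dashed. The glucocorticoid-responsive genes lie furthest to the right, and the KLF genes spread from -0.25 to 0.79.

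Among the genes whose pattern over the 8 libraries was most like that of Klf15 were Gjb6 and Armcx5, by the root mean square distance of log2(FPKM + 1) values centred on the ad libitum mean (0.0899 and 0.106). Gjb6 encodes connexin 30 of astrocytes and averaged 27.2 ± 3.19 FPKM in fasted and 15.6 ± 1.98 FPKM in ad libitum cortex. Armcx5, an armadillo-repeat gene of the X chromosome, averaged 18.7 ± 1.10 FPKM in fasted and 10.5 ± 0.188 FPKM in ad libitum cortex (SD, n = 4 each). Of 8 astrocyte markers 1 was higher, the same Gjb6, and 3 were lower (Aqp4, Gja1 and Gfap, with log2 changes of -0.79, -0.21 and -0.28, the last not called without ad libitum replicate 2, adjusted p = 0.0523, or 3, adjusted p = 0.0861), and the list summed to 545 to 602 FPKM in fasted and 604 to 628 FPKM in ad libitum libraries. Over all tested genes 9.56% were higher and 16.3% lower. The part of the astrocyte markers in the values of Klf15 was not tested.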

How the data were processed

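RNA-seq of 8 libraries was analysed, 4 fasted and 4 ad libitum, grouped by the treatment label and numbered by the title. The authors deposited FPKM, 1 column per library in a table of 24883 rows, and per the submitters' processing notes used TopHat and mm10; their versions, the quantifier and the annotation were not stated. Of repeated symbols the row with the highest mean was used. Genes reaching 1 FPKM in 4 libraries were tested on log2(FPKM + 1) by limma (version 3.58.1, under R 4.3.3), with group as the only term, trend and robust empirical Bayes, and Benjamini-Hochberg adjustment over 12377 genes. The steps were tested on simulated data. Tables and figures used Python 3.11.15, pandas 2.3.3 and matplotlib 3.10.9.

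Members and lists were chosen with earlier results of these data known, and the promoter motifs after the calls were known. Genes named beyond the members were, per list, up to 4 called ones, by smallest p, or 2 in lists with no call, all tested relatives, and the nearest patterns of members called with at least a 1.5-fold change, of which 1 is not reported here.

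Since FPKM hide the depth, it was inferred from FPKM times length in single-transcript genes, where the densest low value (57 to 91 genes per library) was read as 1 fragment; at most 2.52% of genes lay clearly below it. Coordinates and lengths are from GENCODE M21 (GRCm38), promoters from RefSeq (GRCm38.p6).

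Same-numbered libraries' deviations correlated at 0.574, 0.496, 0.382 and 0.523 across genes, all above the bound of 0.1. They were therefore treated as pairs in the blocked fit, while the main fit had group as its only term. This pairing rests on the data, since no label says so. Libraries of different numbers but both odd or both even also correlated, at 0.165 to 0.381, and fasted replicate 3 correlated with ad libitum replicate 1 (0.381) about as with replicate 3 (0.382). Alternatives were a pseudocount of 0.1, no filter, median-ratio and quantile scaling, the block, a term for odd and even numbers, and each library left out.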

Additional observations from a re-analysis of the deposited data

How the results depend on the processing

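The calls of Klf15, Klf9 and Klf13 held under all 14 alternatives, and no change of a called KLF gene turned its direction. The replicate block raised the KLF genes called higher to 5 and those called lower to 1, by the calls of Klf2 (0.50, adjusted p = 0.0232), Klf4 (0.57, adjusted p = 0.00149) and Klf12 (-0.23, adjusted p = 0.0324); by construction it removes variation shared by a number. It changed no other call of a KLF gene. When 1 library at a time was left out, KLF genes called lower ranged from 0 to 1, the 1 being Klf12, whose log2 change ranged from -0.33 to -0.15, and the KLF genes without overlap ranged from 3 to 4. Over all genes 1183 were higher and 2015 lower, 1792 and 1909 with quantile scaling, 1740 and 1956 with median-ratio scaling, and 1773 and 2733 with the block. No scaling moved the median of all genes by 0.1 or more on the log2 scale. The change of Klf10, not called, was 0.01 under both scalings, against -0.02. After median-ratio scaling 18 of 20 ranks of level were as before. Low levels limit Klf4 and Klf2 most, at an estimated 58 and 72 fragments in ad libitum replicate 1.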

Other observations

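Klf16, a GC-box repressor gene outside the 10, was the KLF gene tied most closely to the replicate number. It was at 11.7, 13.2, 11.1 and 12.4 FPKM in fasted replicates 1 to 4, against 11.6, 13.5, 11.2 and 12.5 FPKM in ad libitum replicates 1 to 4. The log2(FPKM + 1) differences within numbers, fasted minus ad libitum, lay between -0.0226 and 0.00434. By the measure used for Klf2, same-numbered libraries shared 99.6% of its variance within groups, against a median of 66.6% over all tested genes. Unrelated libraries would give a middle value and not 0%. Even numbers were above odd numbers in both groups. What the numbers stand for is not given in the labels. Odd numbers held Y-linked transcripts and even numbers Xist, except that ad libitum replicate 3 held both. The part of sex in the values of Klf16 was not tested.

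Klf14, a maternally expressed imprinted gene, was under the filter, at 0.218, 0.185, 0.206 and 0.113 FPKM in fasted replicates 1 to 4, against 0.067, 0.0906, 0.0709 and 0.101 FPKM in ad libitum replicates 1 to 4. The groups did not overlap, it was called higher with no filter on low values (limma adjusted p = 0.0285), and its libraries held an estimated 4 to 14 fragments of it. Klf1, the erythroid member, was at most 0.150 FPKM and Klf17 at most 0.0443 FPKM in any library.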
